A study of Mus musculus with 16 samples.

Results

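Productive T cell receptor β chain (TCRβ) rearrangements that carried no inserted nucleotide between their V, D and J segments were examined in T cells from mouse pancreatic tumors. Members were the in-frame, stop-free rearrangements in which the deposited numbers of inserted nucleotides at the V-D and D-J junctions added to 0. This rule gave 11152 of 126344 unique productive rearrangements (8.83%) summed over the 16 samples. They comprised 9674 different nucleotide sequences and 6508 different amino acid sequences of the third complementarity-determining region (CDR3). Productive rearrangements with 1 or more inserted nucleotides were the comparison group.

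The study addressed the effect of antagonists of vasoactive intestinal peptide (VIP) receptors, with and without a checkpoint antibody, on the T cells of pancreatic tumors. All mice were female C57BL/6 with a subcutaneous tumor of KPC-Luc cells, a luciferase-expressing pancreatic cancer line. Every mouse received a daily peptide (10 µg) and an antibody every 3 days (200 µg) over 10 days. The control group was given scrambled peptide and isotype IgG. The ANT008 group was given the VIP receptor antagonist ANT008 and IgG, the anti-PD-1 group was given scrambled peptide and anti-PD-1, and the combination group was given ANT008 and anti-PD-1. There were 4 mice in each group and 1 sample per mouse, so that p-values measure the spread between mice. Mice are numbered as in the labels, and the sample names inside the deposited data carry the same groups but another number for 13 of the 16 samples. T cells were enriched from the tumors by magnetic selection for CD90.2, a surface marker of T cells, and cells of other types were not fully removed per the labels. A productive template count of 7180 to 72588 per sample lay behind the values, from 2526 to 13939 unique productive rearrangements, of which 213 to 1197 were members. Whether RNA or DNA was amplified is not settled by the labels and methods, and if it was RNA, more cells of a clone and more transcripts per cell cannot be told apart.

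The CDR3 of a TCRβ chain is built in the thymus when a V, a D and a J segment are cut, trimmed and joined. The enzyme terminal deoxynucleotidyl transferase (TdT) adds random nucleotides to the trimmed ends before they are joined, and these additions are the main source of CDR3 variety. TdT is absent from the fetal thymus, and rearrangements formed without it are known to be shorter and to recur in different individuals.

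The sequences below are those whose CDR3 was made without insertions in the most mice, with the addition of the most abundant member of the anti-PD-1 group, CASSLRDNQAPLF. They are shown because each one is germline sequence from end to end. Each runs from the conserved cysteine codon to the end of the deposited read, which stops 1 codon before the end of the CDR3. Capitals mark the bases that the deposited annotation gave to a D segment, and a sequence without capitals had no D segment assigned.
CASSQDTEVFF: tgtgccagcagccaagacacagaagtcttc
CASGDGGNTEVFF: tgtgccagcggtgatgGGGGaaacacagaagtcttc
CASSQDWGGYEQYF: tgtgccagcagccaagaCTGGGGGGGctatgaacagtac
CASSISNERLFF: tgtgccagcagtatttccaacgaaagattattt
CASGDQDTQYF: tgtgccagcggtgatcaagacacccagtac
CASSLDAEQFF: tgtgccagcagcttagatgctgagcagttc
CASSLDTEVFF: tgtgccagcagcttagacacagaagtcttc
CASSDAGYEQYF: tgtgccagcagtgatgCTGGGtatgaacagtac
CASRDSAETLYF: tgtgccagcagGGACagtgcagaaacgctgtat
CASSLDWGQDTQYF: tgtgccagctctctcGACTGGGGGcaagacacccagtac
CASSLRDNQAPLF: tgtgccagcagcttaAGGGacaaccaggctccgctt

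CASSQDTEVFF was made without insertions in 15 of the 16 mice. The sequence printed above, found in 12 mice, joined Trbv5 trimmed by 1 base to Trbj1-1 trimmed by 3 bases, with no D bases between them. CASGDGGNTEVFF was made without insertions in 14 mice and by any means in all 16. Its printed sequence, found in 11 mice, joined an untrimmed Trbv13-2 end to 4 D bases and Trbj1-1. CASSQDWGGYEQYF was made without insertions in 13 mice, and its printed sequence, from Trbv5, 9 bases of Trbd2 and Trbj2-7, was found in 12. The printed sequences of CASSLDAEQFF and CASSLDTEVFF both joined Trbv3, trimmed by 1 base, directly to a J segment, and were found in 5 and 9 mice. By 12 and 9 different nucleotide sequences, respectively, each of these CDR3s was made without insertions in 12 mice. The remaining CDR3s were made this way in 11 to 13 mice, except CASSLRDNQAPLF, which was made so in 2.

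Most of these recurring CDR3s were rare in every mouse. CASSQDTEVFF took from 0 to 0.0693% of productive templates through its members, with a median of 0.0109%, and its highest value was in combination replicate 2. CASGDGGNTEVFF took from 0 to 0.0825%, with a median of 0.0232%. A count of 0 allows a share of up to 0.00413% in the deepest sample and 0.0418% in the shallowest. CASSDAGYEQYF differed from the others by its size in single mice. Its members took 6.02% of productive templates in combination replicate 4, 2.89% in control replicate 4, 1.17% in both control replicate 2 and ANT008 replicate 2, and 0.806% in ANT008 replicate 3. They took at most 0.404% in each of the other mice, and the 4 groups overlapped. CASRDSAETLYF ranged from 0 to 0.415%, with its highest value in anti-PD-1 replicate 3.

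The first comparison asked whether the share of members among unique productive rearrangements changed with treatment. The control mice had shares of 8.25%, 8.18%, 7.56% and 9.47% (mean 8.37% ± 0.800, SD, n = 4). The ANT008 mice had 8.95%, 8.88%, 10.1% and 9.01% (9.24% ± 0.592), with 1 mouse above the highest control. The anti-PD-1 mice had 9.86%, 8.88%, 8.59% and 8.43% (8.94% ± 0.639). The combination mice had 8.76%, 9.43%, 8.53% and 9.38% (9.03% ± 0.449), all of them within the range of the controls. The treated groups lay above the control mean by 0.876 points for ANT008 (SE 0.447, exact permutation p = 0.174), 0.573 points for anti-PD-1 (exact permutation p = 0.463) and 0.658 points for the combination (exact permutation p = 0.361). The p-values come from an exact permutation form of Dunnett's comparison, two-sided, which covers the 3 treatments against the shared control. No difference exceeded the spread between mice. Without control replicate 4 the ANT008 difference was 1.24 points, with an exact permutation p of 0.0260.

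**Figure D1:**
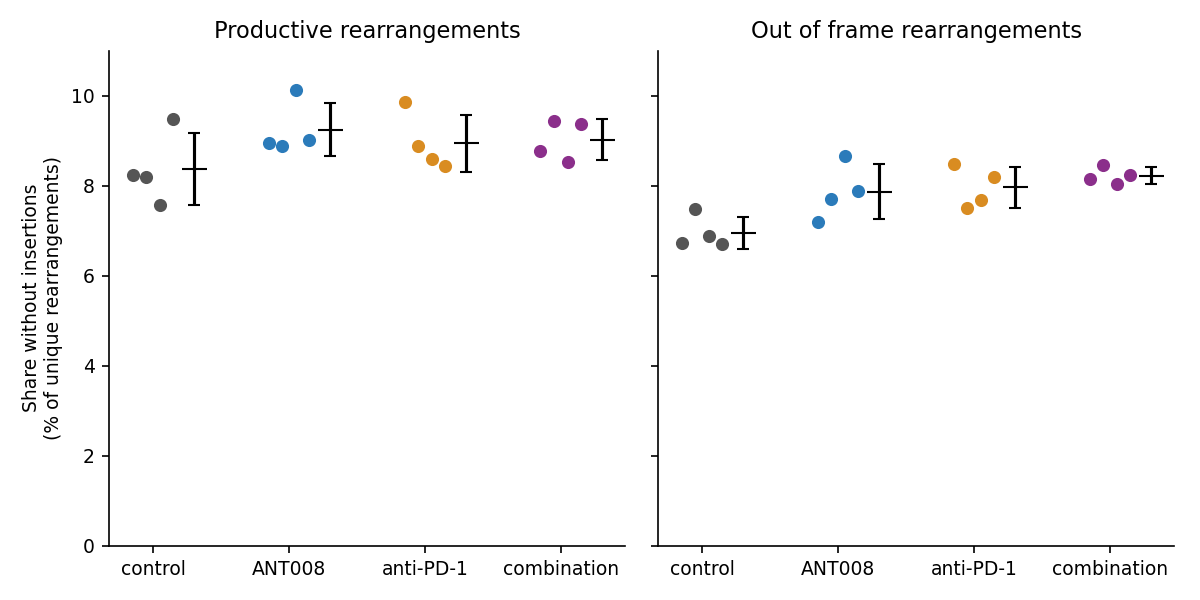
Share of unique rearrangements without inserted nucleotides (%) in each mouse, by treatment group, for productive rearrangements (left) and for out-of-frame ones (right). Points are mice, and the cross and bar beside them give the mean and SD of 4 mice. The productive shares of the groups overlap, while the 4 combination mice sit between 8.05% and 8.46% on the right, above the highest control at 7.47%.

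Out-of-frame rearrangements cannot encode a receptor and are carried along in cells whose other allele is productive, so they are not themselves selected for binding. This comparison was added after the values were seen. In control mice 6.72%, 7.47%, 6.88% and 6.70% of unique out-of-frame rearrangements had no insertion (6.94% ± 0.362, n = 4). The share was 7.19%, 7.71%, 8.67% and 7.88% with ANT008 (7.86% ± 0.613), 8.48%, 7.50%, 7.68% and 8.18% with anti-PD-1 (7.96% ± 0.452), and 8.15%, 8.46%, 8.05% and 8.25% with the combination (8.23% ± 0.179). All 4 anti-PD-1 mice, all 4 combination mice and 3 of 4 ANT008 mice lay above the highest control. The combination exceeded control by 1.28 points (SE 0.305, exact permutation p = 0.00456), anti-PD-1 by 1.02 points (exact permutation p = 0.0180) and ANT008 by 0.918 points (exact permutation p = 0.0308). After Benjamini-Hochberg adjustment over the 9 comparisons of 3 share measures, the exact permutation values were 0.0410 for the combination, 0.0812 for anti-PD-1 and 0.0924 for ANT008. Without ANT008 replicate 3 the ANT008 difference was 0.649 points (exact permutation p = 0.0875), and without anti-PD-1 replicate 1 the anti-PD-1 difference was 0.843 points (exact permutation p = 0.0576). The ANT008 call was also lost without any one of control replicates 1, 3 and 4 or without ANT008 replicate 4 (exact permutation p 0.0587 to 0.0745). The unique out-of-frame rearrangements numbered 2268 to 5872 in control mice and 3816 to 7069 in combination mice. At an equal depth of 3609 out-of-frame templates the differences were 1.86 points for the combination, 1.29 for anti-PD-1 and 1.18 for ANT008 (exact permutation p 0.000547, 0.00895 and 0.0150). With single-template rearrangements left out the combination difference was 3.32 points (exact permutation p = 0.0188), while ANT008 at 1.97 points and anti-PD-1 at 1.56 points did not pass (exact permutation p 0.171 and 0.310). The mean number of insertions in out-of-frame rearrangements was 4.24 ± 0.129 in control and 4.06 ± 0.106 in combination mice.

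The share of rearrangements without insertions was higher in frame than out of frame in 16 of 16 mice. The mean share was 8.89% ± 0.657 among productive and 7.75% ± 0.630 among out-of-frame rearrangements, a difference of 1.15 points (range over mice 0.247 to 2.77). By an exact sign-flip permutation test over the mice the two-sided p was 3.05e-05, the smallest that 16 mice can give. The difference between the frames did not differ detectably between any treatment and control (exact permutation p 0.364 to 0.999).

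The share of productive templates, which weights each rearrangement by its abundance, was spread more widely. Members took 4.25%, 6.73%, 5.81% and 9.53% of productive templates in the control mice (6.58% ± 2.22) and 7.29%, 9.25%, 7.71% and 5.98% in the ANT008 mice (7.56% ± 1.35). They took 8.74%, 6.79%, 14.9% and 7.23% with anti-PD-1 (9.42% ± 3.76) and 12.1%, 8.43%, 10.4% and 20.4% with the combination (12.9% ± 5.26). Of the combination mice, 3 of 4 lay above the highest control. The combination exceeded control by 6.27 points (SE 2.46, exact permutation p = 0.0494), or p = 0.111 after Benjamini-Hochberg adjustment of the exact permutation values over the 9 comparisons. ANT008 and anti-PD-1 differed from control by 0.980 and 2.84 points (exact permutation p 0.983 and 0.566).

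The combination difference depended on the most abundant rearrangements, both members and others. Without rearrangements of either class above 0.5% of productive templates it was 1.62 points (exact permutation p = 0.504). The control mice then had 7.86%, 8.45%, 7.48% and 13.2%, a mean of 9.23%, against 6.58% with all rearrangements. The combination mice then had 12.9%, 8.46%, 11.6% and 10.4%. Without the most abundant member of each sample the combination difference was 4.45 points (exact permutation p = 0.0612). Without combination replicate 4 it was 3.75 points (exact permutation p = 0.173). In all, 12 of the 16 samples ended the call when left out, with exact permutation p-values up to that of combination replicate 4.

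**Figure D2:**
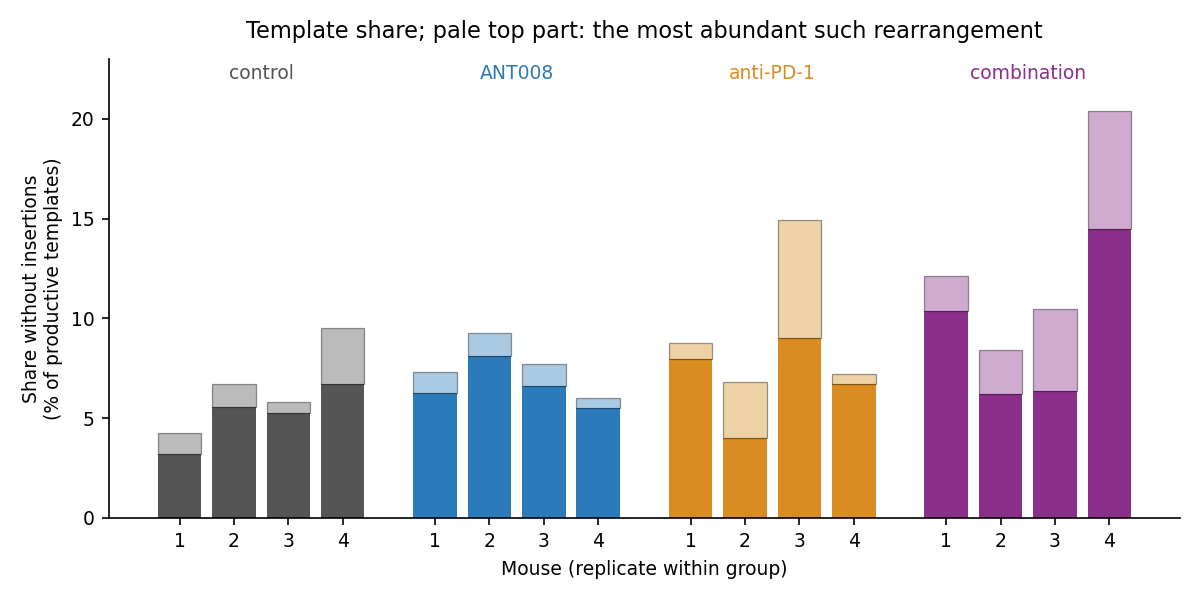
Percent of productive templates in rearrangements without inserted nucleotides, 1 bar per mouse, grouped by treatment. The pale top part of each bar is the most abundant such rearrangement, which took 5.95% and 5.87% in the mice with the highest and second highest bars.

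The most abundant member of a mouse took between 0.486% (ANT008 replicate 4) and 5.95% (combination replicate 4) of its productive templates. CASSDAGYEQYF, from Trbv13-3 and Trbj2-7, was the most abundant member in 4 mice, namely control replicates 2 and 4, ANT008 replicate 2 and combination replicate 4. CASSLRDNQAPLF, from Trbv3, 4 bases of Trbd1 and Trbj1-5, took 4.55% in combination replicate 4 and, in anti-PD-1 replicate 3, 5.87%, with the identical nucleotide sequence. It was not found as a member in the other 14 mice, although the same CDR3 was found by any means in 12 mice.

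Above 0.5% of productive templates there were 30 members in 15 mice, with 22 different CDR3s. Of these 30, 21 (70%) used a gene of the Trbv13 family, compared with 64 of the 298 other rearrangements above the same level (21.5%). Over unique rearrangements of any abundance, Trbv13 genes made up 25.6% ± 2.33 of members and 21.6% ± 2.16 of the others. The same CDR3 recurred among the 30 in different mice, so that they are not independent and no test was made. By group, members were 8 of 95 rearrangements above 0.5% in control, 7 of 81 with ANT008, 6 of 93 with anti-PD-1 and 9 of 59 with the combination.

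Abundance was compared by the mean number of templates and by the share of rearrangements seen once. The mean number of templates per rearrangement differed by -0.06 on the log2 scale (SE 0.146), was higher for members in 6 of 16 mice, and had an exact sign-flip permutation p of 0.669. The log2 ratio of members to others was 0.92 higher in combination than in control mice (SE 0.356), which did not pass the threshold (exact permutation p = 0.0531). Members averaged 4.84 ± 2.93 templates in control and 4.73 ± 1.56 in combination mice, and the others averaged 6.18 ± 2.39 and 3.34 ± 1.06. Without the 10 most frequent rearrangements of each mouse the mean difference between members and others was 0.098 on the log2 scale (exact permutation p = 0.196). A single template was seen for 68.3% ± 5.20 of members (range over mice 57.3% to 73.5%) and for 74.0% ± 4.97 of the others (64.7% to 81.1%), and the member value was the lower in 16 of 16 mice.

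The next question was which V segments the members used. V gene segments encode the first part of the CDR3 together with the rest of the variable domain. Of 33 V genes, 10 differed in usage between members and rearrangements with insertions of the same mice (30.3% of the genes tested, edgeR quasi-likelihood test with Benjamini-Hochberg adjustment). Of these, 5 were used more by members (15.2%) and 5 less (15.2%). With DESeq2 11 were used more and 5 less. All 5 falls were those of edgeR, but of its 5 rises only Trbv20, Trbv13-1 and Trbv13-3 passed. The other DESeq2 rises were in genes that edgeR did not call. Only 25 of the 33 V genes had members, and a gene without members cannot be used more by them. These further rises are therefore not read as results. With templates counted in place of unique rearrangements, edgeR called 1 V gene higher and 7 lower, and 5 of these 8 were among the 10. Because usage adds to 100%, each value is relative to the other genes.

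Among the V genes that passed, Trbv20 had the largest rise. It made up 4.39% ± 1.45 of members (SD, 16 mice, range 1.91% to 7.04%) and 2.83% ± 0.348 of the others, a log2 difference of 0.61 (SE 0.09) with an edgeR adjusted p of 1.88e-07, and was higher in 15 of 16 mice. By templates its difference was 0.43 and did not pass (edgeR adjusted p = 0.340). The 3 genes of the Trbv13 family, were each higher in 14 of 16 mice. Trbv13-3 made up 7.12% ± 1.54 of members and 5.51% ± 0.440 of the others (log2 difference 0.28). Trbv13-1 made up 7.12% ± 1.36 and 6.14% ± 0.862 (0.23), and Trbv13-2 made up 11.4% ± 1.27 and 9.96% ± 1.18 (0.16). Their edgeR adjusted p-values were 0.000265, 0.000174 and 0.00166. By templates Trbv13-3 passed (log2 difference 1.08, edgeR adjusted p 0.00933), while Trbv13-1 (0.75) and Trbv13-2 (0.14) did not.

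Trbv4 and Trbv12-1 were used less by members in all 16 mice. Trbv4 made up 2.74% ± 0.488 of members (range 1.76% to 3.76%) and 4.33% ± 0.361 of the others, a log2 difference of -0.65 (SE 0.07). Trbv12-1 made up 4.30% ± 0.865 and 6.20% ± 0.928, a log2 difference of -0.55 (SE 0.06). The edgeR adjusted p was 3.07e-10 for both. Another 4 V genes passed the test but moved the same way in only 11 or 12 mice, and are named here after their values were seen. They were Trbv15 (log2 difference 0.22), Trbv31 (-0.31), which lies downstream of the constant genes and joins by inversion, Trbv29 (-0.30) and Trbv14 (-0.27).

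Usage was also examined in out-of-frame rearrangements, where no receptor is made and where 3 V genes passed. There Trbv20 was higher without insertions by 0.63 on the log2 scale (edgeR adjusted p 1.37e-05) and Trbv12-1 was lower by -0.54 (edgeR adjusted p 0.000103), both close to their productive values. The third was Trbv1 (0.29, edgeR adjusted p = 0.0236), which had not passed among productive rearrangements and is named here after its value was seen. The Trbv13 genes did not pass out of frame, at 0.24 for Trbv13-3, 0.12 for Trbv13-2 and 0.078 for Trbv13-1 (edgeR adjusted p 0.139, 0.450 and 0.544). Trbv4 differed by -0.17 out of frame against -0.65 among productive rearrangements, and did not pass the test (edgeR adjusted p = 0.123). The difference between the frames was not tested. Against productive rearrangements with exactly 1 insertion, 3 V genes passed, Trbv4 (-0.45), Trbv12-1 (-0.33) and Trbv20 (0.34).

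**Figure D3:**
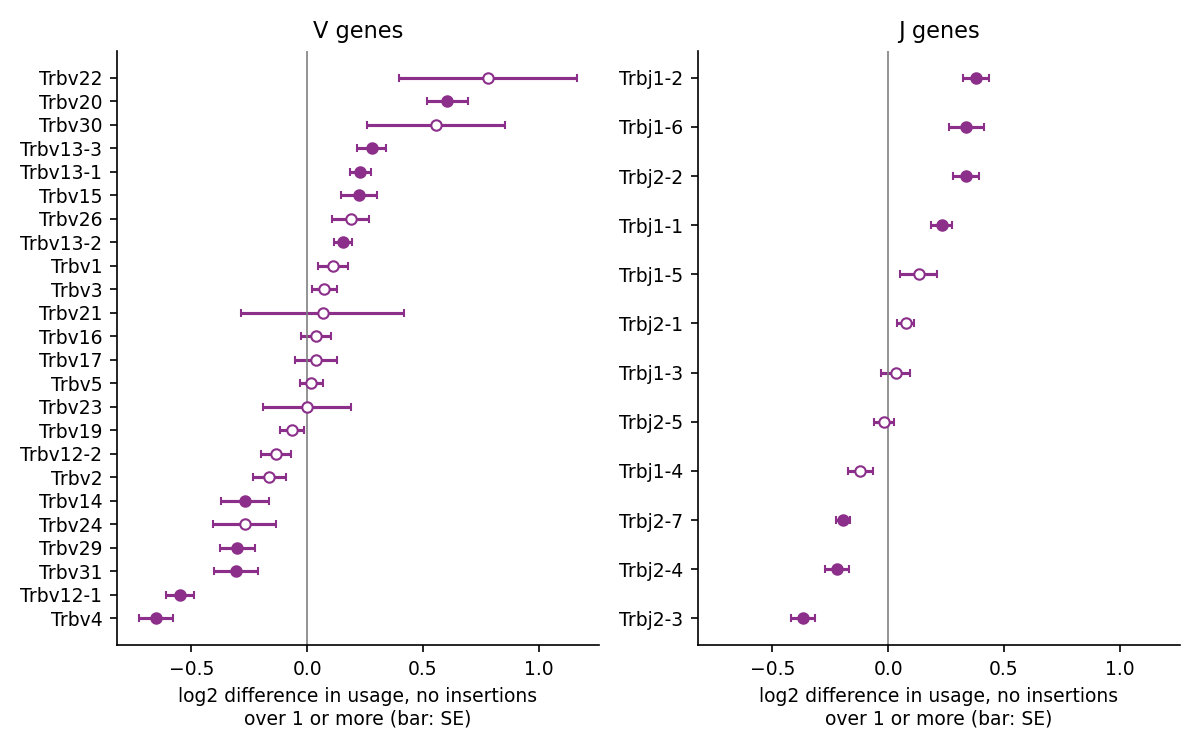
Log2 difference in usage between productive rearrangements without insertions and those with 1 or more, for V genes (left) and J genes (right) with at least 10 members. Bars are approximate standard errors derived from the edgeR test statistic over 16 mice, and filled points passed an adjusted p of 0.05. Trbv4 at -0.65 and Trbv20 at 0.61 are the outermost V genes that passed, and Trbv22 and Trbv30 lie at or beyond 0.5 with wide errors and did not pass.

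J segments encode the end of the CDR3. Of 14 J genes, 7 differed between members and rearrangements with insertions (50% of the genes tested, edgeR), with 4 used more (28.6%) and 3 less (21.4%). Trbj1-6 made up 3.80% ± 1.08 of members and 2.99% ± 0.245 of the others (log2 difference 0.34). Trbj2-2 made up 6.92% ± 1.04 and 5.48% ± 0.372 (0.34), and Trbj1-1 made up 10.3% ± 1.40 and 8.61% ± 0.326 (0.23). All 3 were higher in 14 of 16 mice, with edgeR adjusted p-values of 3.69e-05, 2.18e-08 and 1.93e-06. Trbj1-2 was higher by 0.38 in 13 of 16 mice.

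Trbj2-3 made up 6.77% ± 1.03 of members and 8.71% ± 0.370 of the others, a log2 difference of -0.37 (edgeR adjusted p 1.58e-10, lower in 14 mice). Trbj2-7, the most used J gene, made up 18.8% ± 1.76 and 21.4% ± 0.971, a log2 difference of -0.19 (edgeR adjusted p 9.54e-09, lower in 15 mice). Trbj2-4 was lower by -0.22 in 13 mice, and was named with Trbj1-2 after the values were seen. With templates counted in place of unique rearrangements no J gene passed by edgeR, and 3 had an unadjusted p under 0.05. Out of frame, Trbj2-3 and Trbj2-7 differed by -0.58 and -0.23 in the same direction, and both passed (edgeR adjusted p 3.20e-10 and 4.43e-06). Trbj1-1 (0.29), Trbj1-2 (0.49) and Trbj2-2 (0.24) also passed there. Trbj1-6 (0.092) and Trbj2-4 (-0.087) did not (edgeR adjusted p 0.549 and 0.368). Against exactly 1 insertion Trbj1-6 (0.060), Trbj2-3 (-0.14) and Trbj2-4 (-0.056) did not pass (edgeR adjusted p 0.619, 0.0896 and 0.611), while Trbj1-1, Trbj1-2, Trbj2-2 and Trbj2-7 did.

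Usage among members was then compared between treatments. No V gene of 25 and no J gene of 13 with members passed an adjusted p of 0.05 in ANT008, anti-PD-1 or combination mice against control (0% called in each of 6 comparisons, edgeR quasi-likelihood test). At an unadjusted p under 0.05 there were 2 V gene results and 1 J gene result with edgeR, and 0 with DESeq2. These were Trbv3, at -0.39 (anti-PD-1) and -0.33 (combination) on the log2 scale, and Trbj1-5, higher in anti-PD-1 mice by 0.57.

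The trimming of the segment ends was compared next, since it sets how much germline sequence remains. Members had lost fewer bases from the V end, with a mean of 2.06 ± 0.106 against 2.70 ± 0.0462 bases (difference -0.636, lower in 16 of 16 mice, adjusted exact permutation p 9.16e-05). The mean V loss rose with each added insertion, from 2.18 bases with exactly 1, close to members, to 4.88 at 10 or more. At the J end members had lost slightly fewer than the others pooled, at 2.72 ± 0.0680 against 2.86 ± 0.0558 bases. The difference was -0.135 bases (lower in 14 of 16, adjusted exact permutation p 0.000244). It did not hold against the classes nearest to members, which had lost 2.55, 2.58 and 2.68 J bases with exactly 1, 2 and 3 insertions. The mean J loss was 2.80 bases with 4 insertions and rose to 4.08 at 10 or more. At the 5′ end of the D segment members had lost more, at 2.75 ± 0.129 against 2.57 ± 0.0435 bases (difference 0.183, higher in 14 of 16, adjusted exact permutation p 0.000366). At the 3′ end of D the difference was 0.0623 bases (adjusted exact permutation p 0.0122), and its sign was reversed when single-template rearrangements were left out, at -0.0781.

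The D segment values depend on how a base beside an intact D end is counted. An end cut by the recombinase can keep a few palindromic nucleotides, and the deposited annotation has no separate count for them. Whether its insertion counts include them is not stated. In out-of-frame rearrangements the last base inserted before D was C in 63.3% of those with an untrimmed 5′ D end and in 40.8% of those with a trimmed one. The first base after D was G in 62.7% with an untrimmed 3′ D end and in 13.4% with a trimmed one. Intact D ends were also less common in members, at 17.2% against 25.3% for the 5′ end and 6.20% against 14.8% for the 3′ end. When a lone palindromic base beside an intact D end was not counted as an insertion, the 5′ difference was 0.0287 bases (exact sign-flip permutation p = 0.442) and the 3′ difference was -0.0484 bases (p = 0.0780 by the same exact permutation test), while the V difference was -0.545 bases (exact permutation p 3.05e-05).

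An untrimmed V end was found in 27.1% ± 2.99 of members and 22.9% ± 0.691 of the others. An untrimmed J end was found in 20.4% ± 1.64 of members and 27.0% ± 0.980 of the others. The mean number of J bases lost was nevertheless lower in members than in the others pooled. A D segment could not be named in 23.2% ± 2.09 of members and 18.3% ± 0.912 of the others (difference 4.92 points, higher in 16 of 16 mice, adjusted exact permutation p 6.10e-05). No D segment was found at all in 5.91% ± 1.08 of members, or 651 rearrangements, and in 1.79% ± 0.217 of the others. The share of Trbd1 among named D segments was 52.0% ± 1.74 in members and 51.9% ± 1.42 in the others (exact permutation p = 0.927). Trbd2 lies after the Trbj1 cluster, so a join of Trbd2 to a Trbj1 gene runs against the gene order. It was annotated in 10.9% of the members with Trbd2 and 6.12% of the others with Trbd2. Members kept 5.93 ± 0.180 D bases and the others 6.72 ± 0.0821, and the part of short D calls in this pairing was not tested.

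Absence of insertions at one junction was nearly unrelated to absence at the other. Among productive rearrangements with a D segment, 27.1% ± 1.07 had no V-D insertion, 30.9% ± 0.639 had no D-J insertion and 8.55% ± 0.651 had neither. The product of the first 2 shares was 8.40% ± 0.445, so that the observed share was 1.02 ± 0.0414 times the product (range over mice 0.938 to 1.07). Out of frame the ratio was 1.03 ± 0.0452.

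The CDR3 of members was shorter, as the rule itself removes the inserted bases. It was 38.5 ± 0.208 nucleotides long in members and 42.4 ± 0.177 in the others. Less the inserted bases, the others pooled kept 38.4 ± 0.150 germline nucleotides, and the difference from members was 0.0437 (exact sign-flip permutation p = 0.393). Rearrangements with exactly 1, 2, 3 and 4 insertions kept 38.9, 38.9, 38.8 and 38.6, more than members. Those with 5 kept 38.3, and the value fell to 35.1 at 10 or more. Among rearrangements with a D gene named, members kept 0.401 more germline nucleotides than the others pooled (adjusted exact permutation p 4.58e-05). That subset was not compared by number of insertions. The most common length was 13 residues in members (27.7% ± 1.69) and 14 residues in the others (30.2% ± 0.795).

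The residues between the first 4 and the last 4 of the CDR3, which face the peptide in a typical receptor, had another composition. Inserted bases are absent from members by the rule, so some difference in composition was fixed in advance. The tests give its direction and size only. Members were also shorter, so the same cut at both ends leaves unlike parts of the V and J sequence in the 2 classes. Of the 20 amino acids, 17 differed in share between members and the others (85% of those tested, exact sign-flip permutation test over 16 mice with Benjamini-Hochberg adjustment), with 8 higher (40%) and 9 lower (45%). Glycine, which the D segments encode in several reading frames, rose from 21.6% in the others to 24.9% ± 0.620 in members. Aspartate rose from 8.59% to 10.9% ± 0.575, and asparagine, glutamine, tyrosine, threonine, leucine and tryptophan were also higher.

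Proline fell most in percentage points, from 3.91% in the others to 0.260% ± 0.111 in members, or 15.1-fold. Arginine fell from 5.96% to 2.77% ± 0.448 and valine from 2.03% to 0.568% ± 0.146. Lysine, which was rare in both classes, was at 0.0265% ± 0.0221 in members and 0.524% in the others, or 19.8-fold lower. Each of these 4 was lower in 16 of 16 mice (adjusted exact permutation p 4.70e-05). Serine, phenylalanine, isoleucine, histidine and cysteine were also lower, while alanine, glutamate and methionine did not pass the test. With templates in place of unique rearrangements 11 residues passed, 3 higher and 8 lower.

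**Figure D4:**
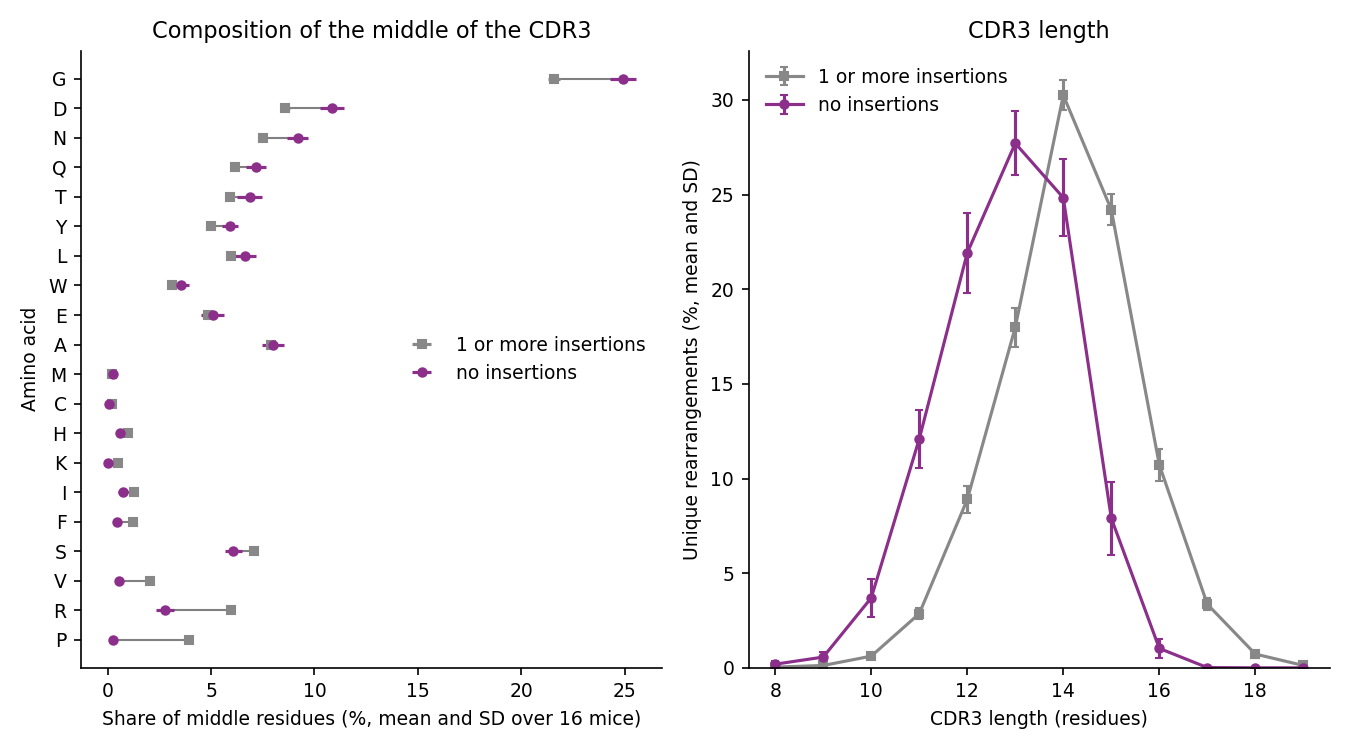
Left, share of each amino acid (one-letter code) among the middle residues of the CDR3 in productive rearrangements without insertions and with 1 or more, as mean and SD over 16 mice. Right, share of unique rearrangements by CDR3 length in residues. Glycine is highest in both classes and higher without insertions (24.9% against 21.6%), proline falls from 3.91% to 0.260%, and the length peak moves from 14 to 13 residues.

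Sharing between mice was examined last. The CDR3 of a member was found in at least 1 other mouse, made by any rearrangement, in 68.6% ± 2.38 of members (range over mice 65.0% to 74.2%) and in 29.8% ± 2.04 of rearrangements with insertions (27.0% to 32.6%). The lowest member value lay above the highest of the others. The mice being compared share each other's sequences, so these shares are given without a test. With exactly 1 insertion the share was 56.3% ± 3.12, below the member value of the same mouse in 16 of 16 mice. It went on falling with each added insertion, to 32.4% ± 2.55 at 3 and 2.52% ± 2.41 at 10 or more.

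Identical nucleotide rearrangements in another mouse were found for 23.6% ± 3.52 of members and 4.70% ± 1.14 of the others, and for 13.5% ± 2.21 with exactly 1 insertion. Of 9674 member sequences, 1003 were found in 2 or more mice, compared with 2115 of 112466 sequences with insertions. Among member sequences the widest spread, 12 mice, was reached by 2, those of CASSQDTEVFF and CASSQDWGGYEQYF printed above. Shorter CDR3s are fewer in possible number, and within CDR3s of 12 to 14 residues the difference in CDR3 sharing was 33.8 points, against 38.8 points over all lengths. It was 30.9 points with single-template rearrangements left out.

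**Figure D5:**
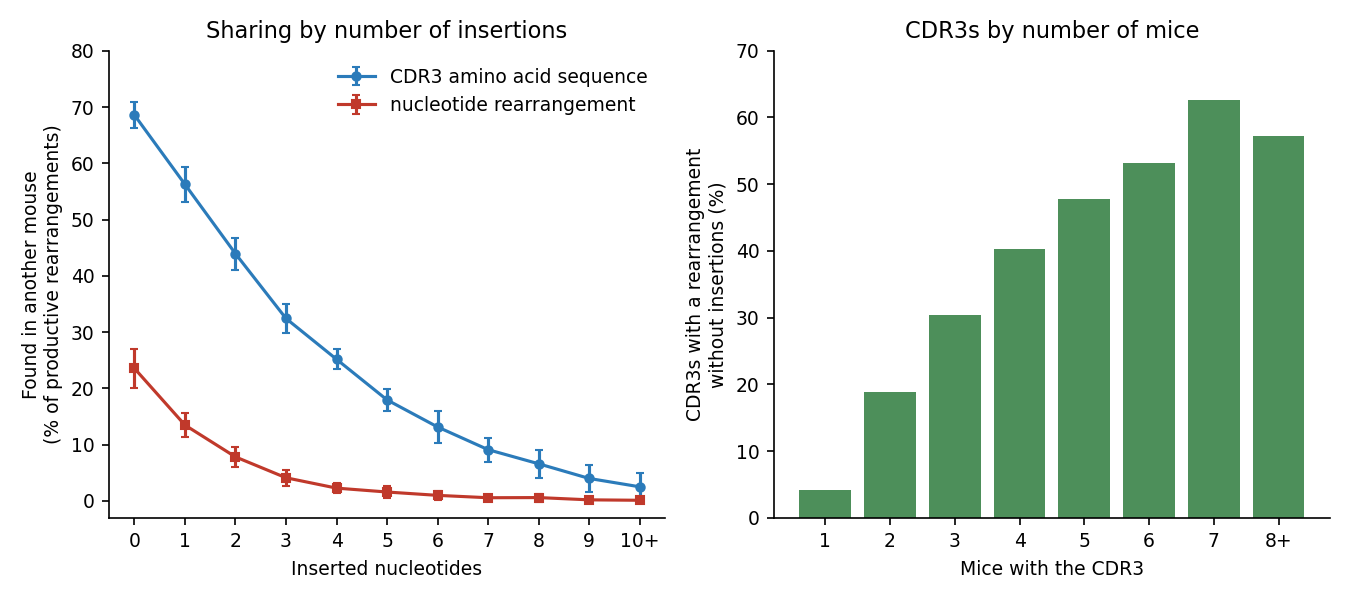
Left, percent of productive rearrangements found in at least 1 other mouse by number of inserted nucleotides, as mean and SD over 16 mice, for the CDR3 amino acid sequence and for the nucleotide rearrangement. Right, percent of CDR3s with at least 1 rearrangement without insertions, by the number of mice that held the CDR3. Sharing falls from 68.6% at 0 insertions to 2.52% at 10 or more, and the bars rise from 4.18% for CDR3s of 1 mouse to 62.7% for those of 7, with 57.2% for 8 or more.

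Read the other way, CDR3s held by more mice more often had a rearrangement without insertions. Of 81216 CDR3s found in 1 mouse, 4.18% had a member. The share was 18.9% for 2 mice, 40.3% for 4 mice, 62.7% for 7 mice and 57.2% of the 311 CDR3s in 8 or more mice (178 CDR3s). A CDR3 in more mice has more rearrangements of any kind, and by rearrangement rather than by CDR3 the members made up 4.17% of those with a CDR3 in 1 mouse and 27.7% of those with a CDR3 in 8 or more. Of the 6508 member CDR3s, 2536 (39.0%) were also made with insertions, and 1649 were made without insertions by 2 or more nucleotide sequences. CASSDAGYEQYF had the most, with 26 nucleotide sequences without insertions among its 98 in all. A member CDR3 had 2.43 nucleotide sequences on average, and a CDR3 made with insertions alone had 1.23.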

How the data were processed

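TCRβ rearrangements were surveyed by Adaptive Biotechnologies with the immunoSEQ assay, in which V and J primers amplify the CDR3 and a synthetic repertoire corrects for unequal amplification. Each deposited entry was a unique rearrangement of 87 nucleotides with its template count, a whole number of starting molecules estimated by the service. The deposited annotation also gave, per rearrangement and in other units than templates, the reading frame, gene names, CDR3 length, and the numbers of bases trimmed and inserted. The version of the service's software and the genome build are not given in the sources used here, so no coordinates are printed. Palindromic nucleotides have no column of their own, and it is not stated whether the insertion counts include them. All 33 V and 14 J gene names matched gene symbols of the GRCm38.p6 annotation.

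Members and lists were chosen with earlier results of these data known. Groups followed the treatment that each label gave. Shares were compared with control by an exact permutation form of Dunnett's comparison over 10510500 distinct assignments of the 16 samples, with raw exact permutation over the 70 splits of 8 samples (smallest two-sided p 0.0286) as an alternative. Differences within mice were tested by 65536 exact sign flips. For V and J usage, unique rearrangements per gene were fitted by quasi-likelihood in edgeR, with the mouse as a block and library size fixed at the class total, and DESeq2 was the alternative. Standard errors of usage were the log2 difference over the square root of the edgeR F statistic, and are approximate. Rearrangements whose V gene was unresolved (0.197% of members) stayed out of the V genes tested. The threshold was an adjusted p of 0.05. V and J genes were named if they passed and moved the same way in at least 14 of 16 mice, and CDR3s if made without insertions in the most mice (10, ties by mean share), with the most abundant member of each group. The depth was 11317 to 99411 templates per sample, and limits from a count of 0 (3 counts) cover counting error only. Alternatives were other normalizations, equal depth, templates in place of unique rearrangements, other comparison classes and each sample left out. Scripts were tested on simulated data. The software was edgeR 4.0.16 and DESeq2 1.42.0 under R 4.3.3, and pandas 2.3.3, numpy 2.4.6, numba 0.67.0, scipy 1.17.1 and matplotlib 3.10.9 under Python 3.11.15.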

Additional observations from a re-analysis of the deposited data

Results flagged for a closer look

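The share of members among unique productive rearrangements was 10.1% in ANT008 replicate 3, far from the other ANT008 mice, which lay between 8.88% and 9.01%. This sample had the fewest productive rearrangements of its group (2745). The difference in V trimming between members and others was -0.504 bases in control replicate 1, while the other control mice lay between -0.642 and -0.626. Of 52 groups of 4 examined in this way, chance would set apart about 1 in 20, and these 2 were the ones set apart.

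Rearrangements with a stop codon entered no comparison of the report. The share of them without insertions was 9.06% ± 1.91 in combination mice and 4.55% ± 2.02 in control mice, a difference of 4.51 points (exact permutation p = 0.0309). These shares rest on 2 to 23 rearrangements without insertions per mouse.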

How the results depend on the processing

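The template share of the combination against control, 6.27 points in the main comparison, had an exact permutation p of 0.0571 over the 70 splits, and was 6.26 points with a D gene assigned (exact permutation p = 0.0698), 2.17 points without the 10 most frequent rearrangements, 4.45 points without the most abundant member and 1.62 points without rearrangements above 0.5% of productive templates, none of which passed. Left-out samples gave 3.75 to 7.74 points. For the out-of-frame share, ANT008 exceeded control by 0.918 points with p = 0.0571 in the exact permutation over 70 splits, by 1.97 points without single-template rearrangements and by 0.518 points with a D gene assigned, and anti-PD-1 by 1.56 points without single-template rearrangements, none past the threshold. Left-out samples gave 0.649 to 1.14 points for ANT008 and 0.843 to 1.19 for anti-PD-1. The unique share of ANT008 ranged from 0.581 to 1.24 points over left-out samples, past the threshold once, without control replicate 4. The replicate numbers are those of the labels, differ from the numbers inside the deposited data for 13 of 16 samples, and pair nothing by the labels. Same-numbered mice had a mean correlation of 0.0552 over V genes, from -0.443 to 0.371, with 8 of 16 samples closest to their own number. Over J genes the mean was 0.101, from -0.578 to 0.552, with 4 of 16. Whether 8 of 16 is more than unrelated numbers would give was not tested. With the replicate block the exact permutation p was 0.0901 for the template share of the combination (6.27 points), 0.0802 for the out-of-frame share of ANT008 (0.918 points), 0.0533 for anti-PD-1 (1.02 points) and 0.0165 for the combination, and 0 V or J genes passed between treatments.

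Templates per rearrangement differed by 0.098 on the log2 scale without the 10 most frequent rearrangements, against -0.06. The D 5′ difference lost its call with templates (0.325 bases) and with the palindromic base allowed (0.0287), the J difference with templates (-0.285), and the D 3′ difference turned to -0.0781 without single templates, -0.0755 with templates and -0.0484 with the palindromic base allowed. CDR3 length less insertions became 0.401 with a D gene assigned, 0.269 with the palindromic base allowed and 0.295 with a D segment found, each past the threshold. No D gene assigned differed by 2.11 points with templates, not past the threshold, and the Trbd1 share, never past it, turned to -2.66 without single templates and -1.86 with templates, and ranged from -0.207 to 0.495 over left-out samples. Middle residues past the threshold numbered 11 with templates, where glutamate (-1.35 points) and leucine (-0.041) changed sign. CDR3 sharing differed by 12.3 points against exactly 1 insertion, 33.8 within 12 to 14 residues and 30.9 without single templates. DESeq2 called 16 V genes, 8 of them among the 10 of edgeR, and its other calls, all rises, are not read as results. Against exactly 1 insertion 3 V genes were called by edgeR, and out of frame 3. J genes called were 0 with templates and 4 against exactly 1 insertion. Trbv14 turned to 0.039 against exactly 1 insertion and Trbj1-1 to -0.015 with templates. The cause of these changes was not tested. For the comparisons, 120 values under these alternatives were counted as unchanged, 16 as weaker, 3 as stronger, 6 as reversed and 9 as moved. A test was unchanged if it kept its direction and side of the threshold. Numbers of genes or residues called, and sharing, were unchanged if they stayed similar in size. For single genes and residues that passed or were tested, 80 values kept their direction and side of the threshold. Another 38 kept the direction but lost the call, most of them with templates, out of frame or against exactly 1 insertion, and 4 changed sign. Trbv13-2 and Trbv15 lost theirs with DESeq2.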
